A study of Mus musculus with 12 samples.

Results

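Genes of megakaryocytes and platelets, 9 of the 23358 rows of the gene count table, were followed across 12 RNA-seq libraries of newborn mouse skull. They were taken by symbol: the granule chemokines Pf4 and Ppbp, the adhesion receptor genes Gp1ba, Gp1bb, Gp9, Itga2b and Gp6, the granule membrane receptor Treml1 and the thrombin receptor F2rl2. Of these, 8 passed the filter on low counts, which kept 16190 genes. All 8 had counts in each of the 12 samples, and each exceeded the filter level in all samples of at least 3 groups. Gp6 did not pass, with 0 counts in 5 of 12 samples, and its counts are given, with a test only from a fit without the filter.

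Megakaryocytes are large polyploid cells of the blood-forming marrow that shed platelets into the circulation. They arise beside red cell precursors from a shared progenitor, and both lineages use the transcription factor GATA1, while Klf1 drives the erythroid side. In newborn mice blood formation is moving into the bones, so platelet genes in a bone sample can come from marrow megakaryocytes and from platelets in blood. Transcripts of some of these genes are not restricted to the lineage: Itga2b is also made by early blood progenitors and mast cells, and Pf4 has been seen in some tissue macrophages.

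The tissue was the frontal bone at postnatal day 3, which here included the nasal bone, the coronal suture and the frontonasal suture. Libraries were made from C57BL/6 and BALB/c pups, inbred mice that were either wild type or had 1 copy of the FGFR2 C342Y allele beside 1 normal copy, which models Crouzon syndrome, a disorder of early skull suture fusion. The 4 groups of 3 samples were thus C57BL/6 wild type, C57BL/6 FGFR2 C342Y/+, BALB/c wild type and BALB/c FGFR2 C342Y/+, all of the same age, and the C342Y/+ groups are called mutants here. The wild type groups carried no stated allele. The allele is in the germ line, so no cell type limits it, and a change in a blood gene can follow from any tissue of the animal.

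Libraries held 27.2 M to 46.5 M gene counts. All deposited counts were even, as happens when a pair adds both of its reads, so a count of 4 may be 2 fragments. A count of 3 corresponds to 0.0646 to 0.113 CPM (counts-per-million, scaled to the library size after TMM normalisation), for counting error only. The labels do not say that the samples of a group were separate animals, so p-values measure the spread between these samples. All C57BL/6 libraries were on 1 flow cell and all BALB/c libraries on another, so strain and flow cell cannot be told apart, while genotype was compared within each. Summed Y-linked counts exceeded 1000 in 3 of 3 C57BL/6 wild type samples and in 1 of 3 samples of each other group, so sex was not balanced between genotypes on C57BL/6, and its part in the results was not tested. Fgfr2 itself averaged 249 CPM ± 35.8 (SD) across the 3 wild type and 361 CPM ± 20.6 (SD) across the 3 mutant C57BL/6 samples, and the counts do not separate the alleles.

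The promoters below are shown to set the genes that changed most on C57BL/6 beside those that changed least and beside Klf1: Ppbp, Treml1 and F2rl2 had the largest mutant to wild type changes on C57BL/6 among the 8 genes tested, Gp1ba and Gp1bb the smallest. Each is the 250 bases before the RefSeq start in GRCm38.p6, 5′ to 3′ on the gene's strand: Ppbp chr5:90768268-90768517 (+), Treml1 chr17:48359666-48359915 (+), F2rl2 chr13:95696670-95696919 (+), Gp1ba chr11:70638872-70639121 (+), Gp1bb chr16:18622404-18622653 (-) and Klf1 chr8:84901732-84901981 (+). Capitals mark matches to the GATA motif (GATAA or GATAG after an A or a T, on either strand).
Ppbp: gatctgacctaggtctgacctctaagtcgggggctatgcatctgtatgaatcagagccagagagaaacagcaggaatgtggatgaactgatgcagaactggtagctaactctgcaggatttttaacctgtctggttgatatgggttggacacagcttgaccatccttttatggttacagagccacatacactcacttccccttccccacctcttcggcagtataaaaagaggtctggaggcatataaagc
Treml1: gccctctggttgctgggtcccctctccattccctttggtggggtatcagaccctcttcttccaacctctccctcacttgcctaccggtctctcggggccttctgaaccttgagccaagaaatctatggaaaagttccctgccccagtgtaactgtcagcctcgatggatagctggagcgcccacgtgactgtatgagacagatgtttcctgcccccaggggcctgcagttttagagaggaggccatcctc
F2rl2: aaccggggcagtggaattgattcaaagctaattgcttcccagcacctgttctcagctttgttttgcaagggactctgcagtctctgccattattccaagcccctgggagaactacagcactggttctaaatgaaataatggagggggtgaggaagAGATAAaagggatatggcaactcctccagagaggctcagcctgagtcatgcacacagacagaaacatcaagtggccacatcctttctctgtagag
Gp1ba: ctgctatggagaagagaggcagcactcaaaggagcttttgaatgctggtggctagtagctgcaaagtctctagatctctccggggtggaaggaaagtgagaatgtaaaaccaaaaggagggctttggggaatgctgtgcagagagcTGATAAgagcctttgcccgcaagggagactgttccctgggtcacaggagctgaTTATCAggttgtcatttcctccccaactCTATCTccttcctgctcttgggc
Gp1bb: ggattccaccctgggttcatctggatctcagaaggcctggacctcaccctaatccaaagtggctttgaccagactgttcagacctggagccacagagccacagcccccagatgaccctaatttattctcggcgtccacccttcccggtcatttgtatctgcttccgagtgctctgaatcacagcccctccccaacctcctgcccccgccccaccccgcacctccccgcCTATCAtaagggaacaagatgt
Klf1: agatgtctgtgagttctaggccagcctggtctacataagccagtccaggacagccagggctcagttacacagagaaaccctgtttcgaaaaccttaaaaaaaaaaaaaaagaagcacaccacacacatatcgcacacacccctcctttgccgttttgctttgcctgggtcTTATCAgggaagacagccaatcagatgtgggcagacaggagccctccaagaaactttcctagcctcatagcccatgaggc
All 9 symbols and Klf1 matched a RefSeq promoter. The GATA letters occurred in 4 of the 9 windows (F2rl2, Gp1ba, Gp1bb and Gp6), in that of Klf1, and in 26.5% of 32851 promoters of the same length. Gp1ba held 3 matches. The windows of Ppbp and Treml1, which had the largest falls on C57BL/6, held none of these letters, which says nothing of GATA factors outside the 250 bases. The core of the ETS motif (AGGAAG or CGGAAG on either strand), a family that includes the megakaryocyte factor FLI1, occurred in 6 of the 9 windows and in 39.2% of all promoters. A match is a match of letters, and no binding was measured.

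Levels were compared between genes on the authors' RPKM scale, which divides by gene length, and only within a group. In C57BL/6 wild type samples Pf4 was highest at 10.5 RPKM ± 1.17 (SD, n = 3), followed by Ppbp at 3.84 ± 1.29, Itga2b at 2.55 ± 0.817, Gp1bb at 2.19 ± 0.161, Gp9 at 0.975 ± 0.410, Gp1ba at 0.854 ± 0.181, Treml1 at 0.429 ± 0.105, F2rl2 at 0.376 ± 0.187 and Gp6 at 0.0640 ± 0.0578. Neighbours in this order whose sample ranges did not overlap were Pf4 and Ppbp, Gp1bb and Gp9, Gp1ba and Treml1, and F2rl2 and Gp6. The order by mean was the same in BALB/c mutants, where Pf4 reached 22.9 RPKM ± 4.44 (SD, n = 3) and Ppbp 7.59 ± 2.91. In C57BL/6 mutants Pf4 was still first at 5.21 RPKM ± 1.14 (SD, n = 3), but Ppbp, at 0.580 ± 0.0140, stood below Gp1bb at 1.53 ± 0.136, Itga2b at 1.21 ± 0.417 and Gp1ba at 0.640 ± 0.0403. In BALB/c wild type samples Ppbp at 3.30 RPKM ± 1.59 (SD, n = 3) and Gp1bb at 3.28 ± 0.0904 were at nearly the same mean.

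On C57BL/6 the mutation went with lower platelet transcripts. Of the 8 tested genes 6 fell at an adjusted p under 0.05: Treml1, Ppbp, F2rl2, Gp9, Itga2b and Pf4. Lower calls made up 12.6% of all 16190 genes tested. The median log2 fold change of the 8 was -1.30, against -0.00395 for all genes tested. In 7 of the 8, every mutant sample lay below every wild type sample, which held for 21.9% of all genes. In bulk tissue, fewer cells of a type and less RNA per cell cannot be told apart. All tests are edgeR quasi-likelihood tests on the counts with Benjamini-Hochberg adjustment over all genes tested, and fold changes are mutant over wild type.

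**Figure D1:**
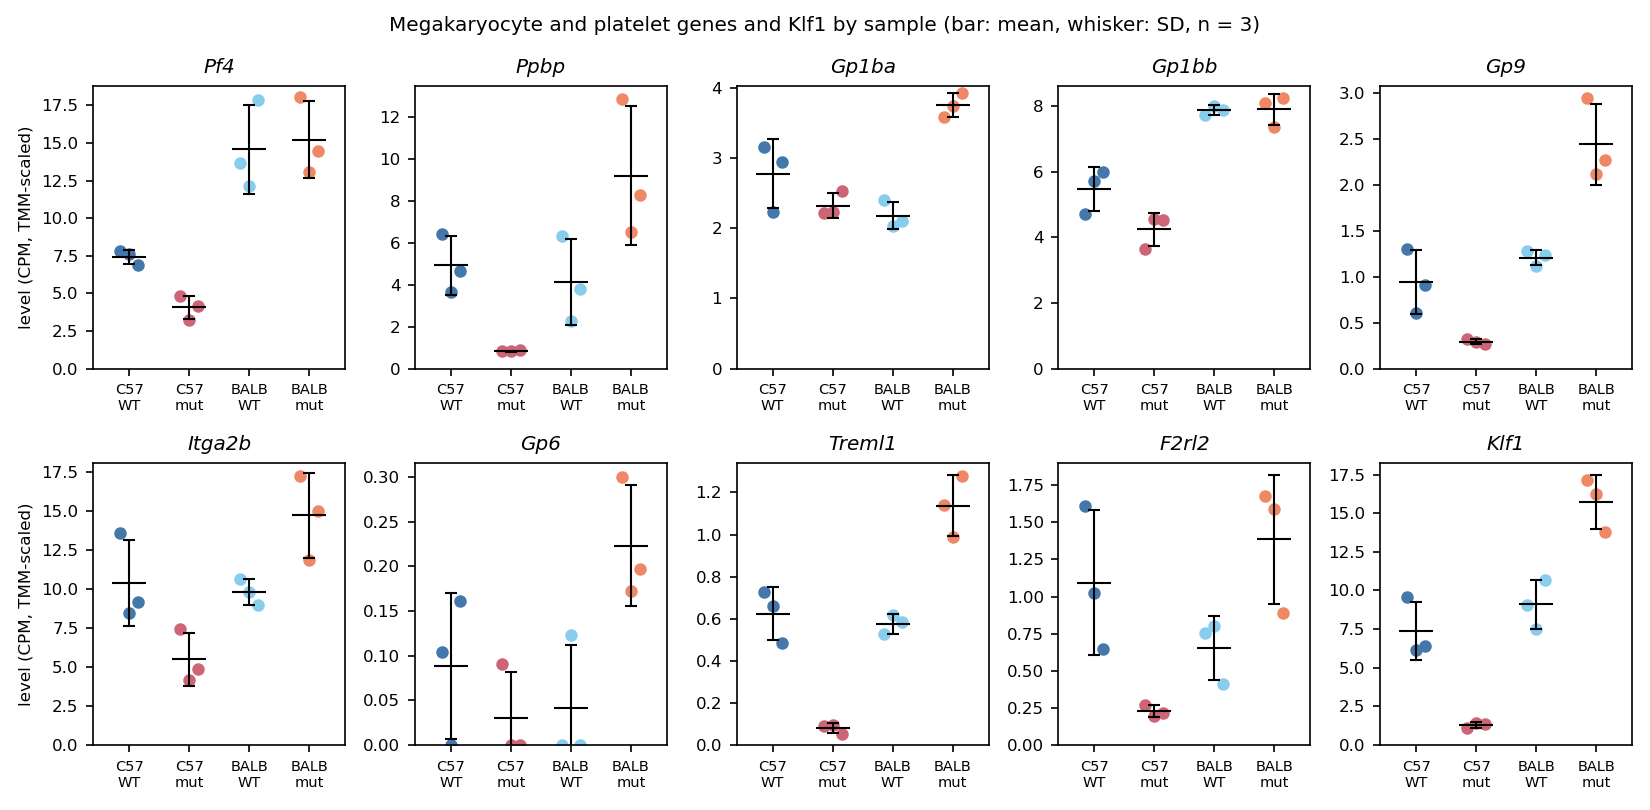
Level of the 9 megakaryocyte and platelet genes and of the erythroid factor Klf1 in each of the 12 samples, in CPM on linear axes that start at 0 and differ between panels. Points are samples, bars are group means and whiskers are SDs (n = 3); in Ppbp the 3 C57BL/6 mutant samples sit between 0.813 and 0.862 CPM, under all 9 other samples.

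The granule chemokines Pf4 and Ppbp are stored in alpha granules and released when platelets are activated. Ppbp measured 6.44, 3.67 and 4.66 CPM in the C57BL/6 wild type samples and 0.813, 0.825 and 0.862 CPM in the mutants. The mutant samples lay close together and far below the wild type range. Ppbp fell by 2.56 log2 units (SE 0.379, adjusted p = 0.00126), to 0.169 of the wild type level. Pf4 measured 7.79, 7.59 and 6.86 CPM in wild type and 4.79, 3.25 and 4.15 CPM in mutants, again without overlap. Pf4 fell by 0.87 (SE 0.180, adjusted p = 0.00680), which left 0.548 of the wild type level. The pair are neighbours on chromosome 5 in the deposited table (Ppbp at 90768518 to 90770060, Pf4 at 90772435 to 90773383, a gap of 2374 bases), and their ratio took different values in the groups. There were 0.663 ± 0.172 (SD, n = 3) Ppbp counts per Pf4 count in C57BL/6 wild type and 0.210 ± 0.0420 in C57BL/6 mutants. On BALB/c the ratio was 0.287 ± 0.151 (SD, n = 3) in wild type and 0.594 ± 0.111 in mutants, the opposite order. Sample ranges of the ratio did not overlap between genotypes on either strain, and the ratio is given as a description without a test.

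Gp1ba, Gp1bb and Gp9 encode 3 chains of the glycoprotein Ib-IX complex, which holds platelets to von Willebrand factor. Gp9 measured 1.30, 0.602 and 0.911 CPM in C57BL/6 wild type and 0.316, 0.291 and 0.269 CPM in mutants. All mutant values lay below the wild type range, and Gp9 fell by 1.67 (SE 0.318, adjusted p = 0.00448). The other chains did not pass the test. Gp1ba measured 3.17, 2.23 and 2.95 CPM in wild type and 2.21, 2.23 and 2.53 CPM in mutants, with overlapping ranges and a log2 change of -0.26 (SE 0.180, adjusted p = 0.310). Gp1bb measured 4.73, 5.72 and 6.00 CPM in wild type and 3.66, 4.56 and 4.53 CPM in mutants. These ranges did not overlap, but the log2 change of -0.37 (SE 0.133) missed the threshold at an adjusted p of 0.0623 and passed it only when libraries were scaled by total counts (adjusted p = 0.00859). Gp1bb (chromosome 16, 18620319 to 18622403) shares 593 bases, 28.4% of its span, with Sept5, a septin known from neurons and platelets (18621811 to 18629938). Sept5 averaged 72.3 CPM ± 3.75 (SD, n = 3) in wild type samples of C57BL/6 and 65.2 CPM ± 2.93 in mutants, so its reads far outnumber those of Gp1bb. The strand setting of the counting is not given in the sources used here, and how such shared reads were assigned is therefore uncertain.

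Itga2b encodes the alpha chain of the platelet fibrinogen receptor. It measured 13.6, 8.49 and 9.17 CPM in C57BL/6 wild type and 7.41, 4.17 and 4.90 CPM in mutants. The ranges did not overlap, and Itga2b fell by 0.92 (SE 0.230, adjusted p = 0.0155). This call was lost in a fit of the 6 C57BL/6 samples alone (adjusted p = 0.0773), without wild type replicate 1 (0.0683) and without mutant replicate 5 (0.0588) or 6 (0.0646). Treml1 encodes a receptor stored in alpha granules that is specific to megakaryocytes and platelets. It measured 0.727, 0.662 and 0.482 CPM in wild type and 0.0904, 0.0970 and 0.0539 CPM in mutants, and fell by 2.89, the most of the 8 (SE 0.379, adjusted p = 0.000662). Its counts were low: 28, 22 and 18 in wild type and 4, 4 and 2 in mutants. Taken as read pairs, these are 34 against 5, which puts Treml1 7.65-fold lower with an exact 95% interval of 2.98 to 25.1 for counting error only. F2rl2 encodes the thrombin receptor PAR3, which on mouse platelets helps thrombin cleave PAR4. It measured 1.61, 1.02 and 0.643 CPM in wild type and 0.271, 0.194 and 0.216 CPM in mutants, and fell by 2.25 (SE 0.446, adjusted p = 0.00547) with no overlap. F2rl2 (chromosome 13, 95696920 to 95702768) lies inside Iqgap2, a scaffold protein gene (95627177 to 95891922), which also fell by 0.77 (SE 0.169, adjusted p = 0.00868), so shared reads are uncertain here too. Gp6, the platelet collagen receptor, had 4, 0 and 6 counts in wild type and 4, 0 and 0 in mutants. In the edgeR fit without the filter its log2 change was -1.39 (SE 1.44, adjusted p = 0.533).

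On BALB/c none of the 8 tested genes was called, and the values leaned the other way. Calls in either direction made up 0.136% of all genes tested on this background. All 8 log2 fold changes were above 0 and their median was 0.88, against 0.00 for all genes. At an unadjusted p under 0.05, 6 of the 8 were higher in mutants, against 7.11% of all genes, and the same 6 had no overlap between mutant and wild type samples, against 9.93%. These 6 were Ppbp, F2rl2, Gp9, Treml1, Gp1ba and Itga2b. DESeq2 called 2 of the 8, Gp1ba at an adjusted p of 0.0148 and Ppbp at 0.0386. Over the 23358 genes it was given, DESeq2 called 316 on BALB/c in either direction. The authors' deposited table likewise gives Ppbp a q-value of 0.0411 in this comparison, with a log2 value of 0.96. In the authors' deposited table Gp1ba has a q-value of 0.129, and no other of the 9 genes is under 0.05.

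**Figure D2:**
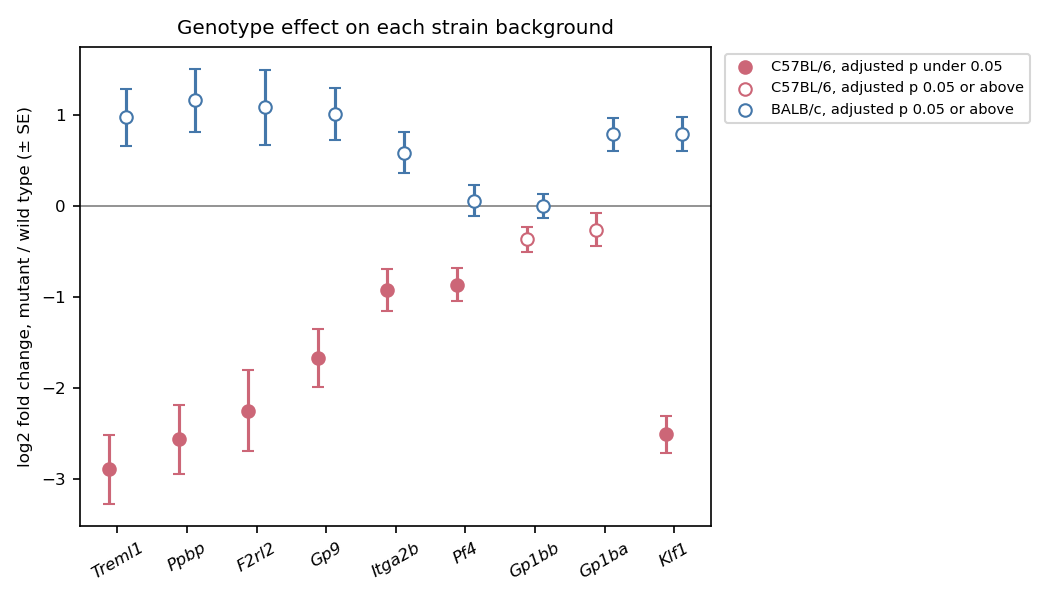
Log2 fold change of mutant over wild type on C57BL/6 (red) and on BALB/c (blue) for the 8 genes tested and Klf1; whiskers are standard errors, and filled points have an adjusted p under 0.05 in the edgeR test. Points on C57BL/6 run from -2.89 (Treml1) to -0.26 (Gp1ba), and those on BALB/c from 0.00 (Gp1bb) to 1.16 (Ppbp).

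Ppbp measured 6.31, 2.29 and 3.81 CPM in BALB/c wild type and 12.9, 6.50 and 8.27 CPM in BALB/c mutants. The lowest mutant sample stood just above the highest wild type sample, and the log2 fold change was 1.16 (SE 0.347, adjusted p = 0.217). Pf4 was high in both genotypes and did not separate them: 13.7, 12.2 and 17.9 CPM in wild type and 18.05, 13.1 and 14.5 CPM in mutants. Its log2 fold change was 0.06 (SE 0.172, adjusted p = 0.949).

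Among the glycoprotein Ib-IX chains, Gp1ba measured 2.40, 2.04 and 2.11 CPM in BALB/c wild type and 3.597, 3.75 and 3.94 CPM in mutants. Both groups were tight and stood well apart, with a log2 change of 0.78 (SE 0.181, adjusted p = 0.114). Gp9 measured 1.28, 1.11 and 1.23 CPM in wild type and 2.94, 2.11 and 2.26 CPM in mutants. Every mutant sample was above every wild type sample, and the log2 change was 1.012 (SE 0.289, adjusted p = 0.198). Gp1bb ran at 7.74, 8.03 and 7.91 CPM in wild type and 8.09, 7.36 and 8.27 CPM in mutants, a log2 change of 0.00262 (SE 0.131, adjusted p = 1.00). Of the 3 chains, Gp9 and Gp1ba were separated by genotype on BALB/c and Gp1bb was not.

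Itga2b measured 10.7, 9.82 and 8.96 CPM in BALB/c wild type and 17.3, 11.9 and 15.01 CPM in mutants, a log2 change of 0.58 (SE 0.226, adjusted p = 0.341). Treml1 measured 0.526, 0.618 and 0.586 CPM in wild type and 1.14, 0.990 and 1.28 CPM in mutants, a log2 change of 0.97 (SE 0.314, adjusted p = 0.250). Neither gene had overlapping ranges, and Treml1 was near 2 times the wild type level at a fold of 1.96. F2rl2 measured 0.751, 0.803 and 0.410 CPM in wild type and 1.68, 1.59 and 0.886 CPM in mutants, a log2 change of 1.08 (SE 0.414, adjusted p = 0.334). Gp6 had 0, 4 and 0 counts in wild type and 10, 8 and 8 in mutants, and its log2 change in the fit without the filter was 2.30 (SE 1.39, adjusted p = 0.694). The BALB/c mutants were the only group of the 4 with Gp6 counts in all 3 samples.

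The genotype effects on the 2 backgrounds were then compared with each other by the interaction term (effect on BALB/c minus effect on C57BL/6). The difference was called in 7 of 8 genes, all in the direction of a higher effect on BALB/c, against 5.46% of all genes tested. It was largest for Treml1 at 3.86 (SE 0.493, adjusted p = 0.00158), Ppbp at 3.72 (SE 0.514, adjusted p = 0.00233) and F2rl2 at 3.33 (SE 0.608, adjusted p = 0.00877). Gp9 differed by 2.68 (adjusted p = 0.00487) and Itga2b by 1.504 (adjusted p = 0.0176). Gp1ba differed by 1.04 (adjusted p = 0.0296) and Pf4 by 0.93 (adjusted p = 0.0395), and each of these calls was lost in 8 of 12 fits that left out 1 sample. Pf4 lost it without C57BL/6 wild type replicate 1 or 2, C57BL/6 mutant 5 or 6, BALB/c wild type 13 or 14, or BALB/c mutant 16 or 18, and Gp1ba without C57BL/6 wild type 1, C57BL/6 mutant 5 or 6, BALB/c wild type 14 or 15, or BALB/c mutant 16, 17 or 18. Gp1bb was the gene not called, at 0.37 (SE 0.186, adjusted p = 0.206), and it was called when libraries were scaled by total counts (0.60, adjusted p = 0.0465).

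Between the strains, wild type samples were called higher in BALB/c for 2 of 8 genes and lower for 0. This count is near the background, since 22.8% of all genes were called higher in BALB/c. Pf4 was higher in BALB/c by 0.97 log2 units (SE 0.176, adjusted p = 0.000980) and Gp1bb by 0.53 (SE 0.132, adjusted p = 0.00652). The other 6 had overlapping ranges between wild type strains. In mutants all 8 genes were higher in BALB/c, against 18% of all genes. These differences ran from 0.69 for Gp1ba (SE 0.180, adjusted p = 0.0102) to 3.75 for Treml1 (SE 0.376, adjusted p = 2.09e-05), with Ppbp at 3.46, Gp9 at 3.04, F2rl2 at 2.59, Pf4 at 1.90, Itga2b at 1.42 and Gp1bb at 0.90. The strain and genotype comparisons use the same samples, so these values stand beside the genotype values and do not add to them. Strain and flow cell coincide in both.

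Klf1, the transcription factor that drives red cell genes, was the erythroid comparison. It measured 9.56, 6.14 and 6.43 CPM in C57BL/6 wild type and 1.08, 1.46 and 1.35 CPM in mutants, and fell by 2.51 (SE 0.208, adjusted p = 8.26e-05). On BALB/c it measured 9.09, 7.53 and 10.7 CPM in wild type and 17.1, 16.2 and 13.8 CPM in mutants, a log2 change of 0.79 (SE 0.186, adjusted p = 0.124). DESeq2 (adjusted p = 0.00622), a fit of the BALB/c samples alone (0.0431) and the authors' deposited table (q-value 0.0334) put it past the threshold. Klf1 thus had non-overlapping genotypes on both backgrounds, in opposite orders, and its interaction was 3.30 (SE 0.279, adjusted p = 0.000119).

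Each gene's change was then set against that of Klf1 by fitting log2 CPM minus the log2 CPM of Klf1 in the same sample with limma. On C57BL/6 the change of 5 of 8 genes was above that of Klf1, with differences of 2.20 for Gp1ba, 2.08 for Gp1bb, 1.57 for Pf4, 1.52 for Itga2b and 0.98 for Gp9 (adjusted p from 2.55e-09 to 0.0198). In the same fit 93.3% of all genes differed from Klf1. The remaining 3 were not past the threshold, which does not show that they changed alike: the difference was -0.01 for Ppbp (95% interval -0.77 to 0.75), 0.11 for Treml1 (-0.49 to 0.71) and 0.49 for F2rl2 (-0.43 to 1.41), each interval from the gene's own variance on 8 degrees of freedom. All 8 ratios share the error of Klf1. A prior count of 2 was added before the log, which pulls changes of low-count genes toward 0, and the intervals do not cover this. With a prior count of 0.5 the difference of Treml1 was -0.30 (adjusted p = 0.618). Against the mean of 21 erythroid genes in place of Klf1, Ppbp differed by -0.93, a larger fall than that mean (adjusted p = 0.00558), and Gp9 differed by 0.06 (adjusted p = 0.879). The genes in the mean moved unevenly, from Tmod1 (-2.70) and Klf1 (-2.51) to Fech (-0.07), which was not called. The call of Gp9 against Klf1 was also lost without C57BL/6 wild type replicate 2 (adjusted p = 0.0755).

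**Figure D3:**
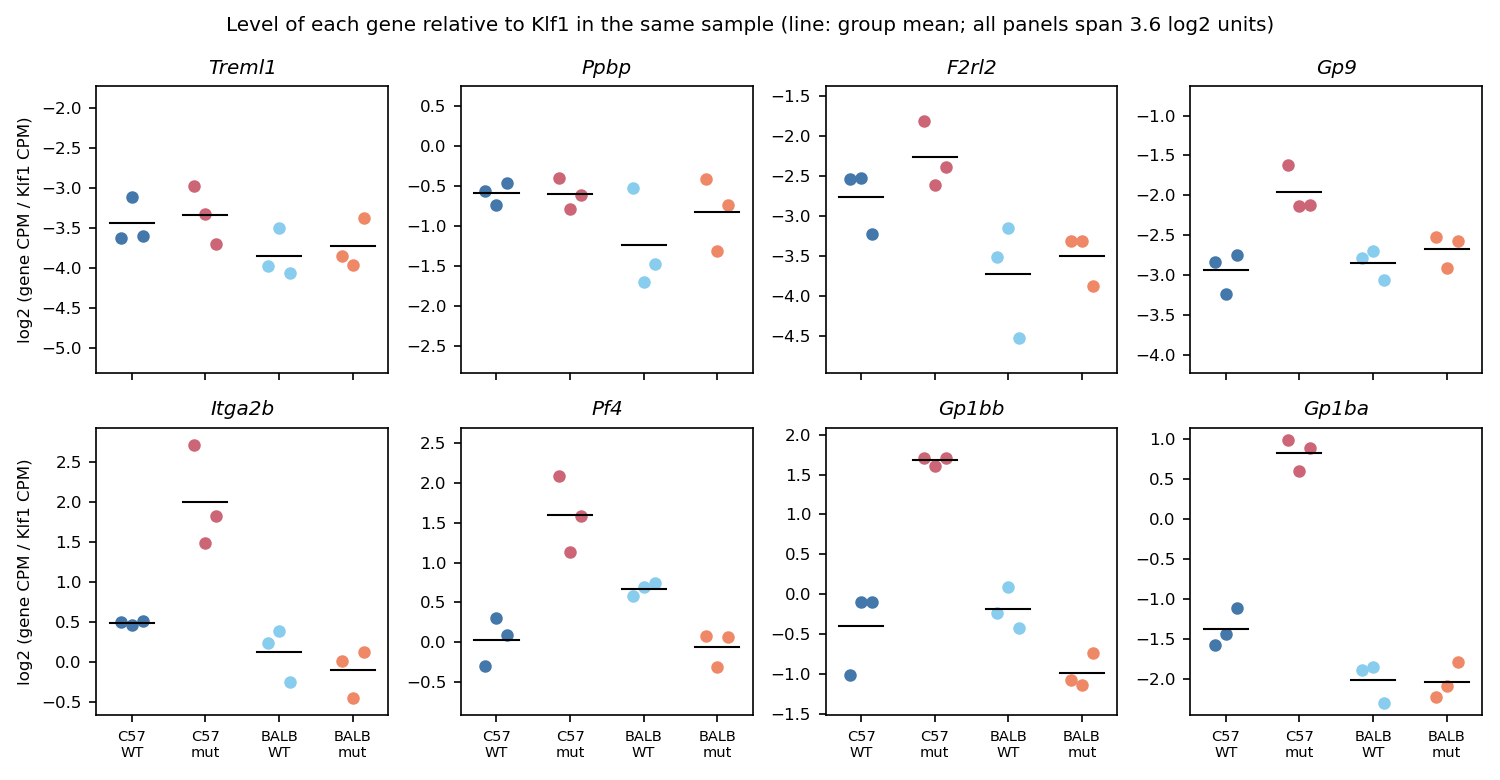
Log2 CPM of each gene minus log2 CPM of Klf1 in the same sample, by group, with a prior count of 2 added before the log. Points are samples, lines are group means, and every panel spans the same number of log2 units. The prior count damps the values of low-count genes such as Treml1, which therefore differ from plain CPM ratios. In C57BL/6 mutants Pf4 sits at 1.13 to 2.09, above all other samples, while the ratio of Ppbp in the same samples (-0.78 to -0.39) overlaps that in C57BL/6 wild type (-0.73 to -0.46).

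On BALB/c 2 of 8 genes differed from Klf1, against 74.1% of all genes: Pf4 by -0.73 (adjusted p = 0.0121) and Gp1bb by -0.79 (adjusted p = 0.00988). Both calls were lost without BALB/c mutant replicate 17, and 1 of the 2 without BALB/c wild type replicate 14. For the interaction 4 of 8 differed from Klf1, against 92.7% of all genes: Gp1bb by -2.87, Pf4 by -2.29, Gp1ba by -2.22 and Itga2b by -1.74, all of them smaller strain differences than that of Klf1. Gp9 differed by -0.81 at an adjusted p of 0.170 (0.0224 with its own variance on 8 degrees of freedom, an alternative chosen after the data were seen). Ppbp, Treml1 and F2rl2 were past the threshold against Klf1 in none of the 3 contrasts, and the platelet genes were not tested against each other. Against the erythroid mean, the interaction of Ppbp differed by 1.47 (adjusted p = 0.00234) and that of Itga2b no longer did (-0.69, adjusted p = 0.0623).

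Further genes of the lineage came from 3 lists. Of 12 genes of megakaryocyte transcription and growth, 8 fell and 0 rose on C57BL/6 (median -0.74), none was called on BALB/c (median 0.30), where 0.136% of all genes were called, and 8 had a higher genotype effect on BALB/c by the interaction test, against 5.46% of all genes. Among those that fell were Gata1 (-2.29), Gfi1b (-2.08), Myb (-1.83) and Nfe2 (-1.24), which also serve red cell precursors. The 4 not called were Fli1 (0.30, adjusted p = 0.0605), Mafg (0.23), Runx1 (0.22) and Thpo (-0.59), the first 3 of which are used by many other cells. This list gave 6 falls in the C57BL/6 samples alone, 1 rise with DESeq2, and 7 to 8 falls and 0 to 2 rises with 1 sample left out. Of 18 platelet receptor genes tested, 3 fell and 3 rose on C57BL/6 (median -0.04), where 12.6% of all genes tested were called lower and 11.3% higher, shares close to those of this list. On this list 0 were called on BALB/c (median 0.03). The glycoprotein V gene Gp5 (-2.54), a further chain of the glycoprotein Ib complex, and the podoplanin receptor Clec1b (-2.33) fell, while Itgb3, the partner of Itga2b and also an integrin of osteoclasts, rose by 0.87. Trem1, a myeloid receptor, fell by 0.84, and the integrin Itga2 (0.76) and the Fc receptor chain Fcer1g (0.29) rose. The count of 3 falling receptors was 1 in the C57BL/6 samples alone and without C57BL/6 wild type replicate 1 or mutant replicate 6, 2 without wild type replicate 2 or mutant replicate 4 or 5, and 6 (with 2 rises) under scaling by total counts. Of 20 genes of platelet granules, cytoskeleton and signalling, 6 fell and 2 rose on C57BL/6 (median -0.35), and 0 were called on BALB/c (median 0.31). The platelet tubulin Tubb1 (-2.25), the G protein Gnaz (-1.71), the lipoxygenase Alox12 (-1.502), coagulation factor F5 (-1.20) and the granule protein Nbeal2 (-0.98) fell, and the signalling genes Lat (0.61) and Syk (0.40), shared with other blood cells, rose. The granule list gave 9 falls with DESeq2, with halved counts and without C57BL/6 wild type replicate 3, and 10, with 0 rises, under scaling by total counts.

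**Figure D4:**
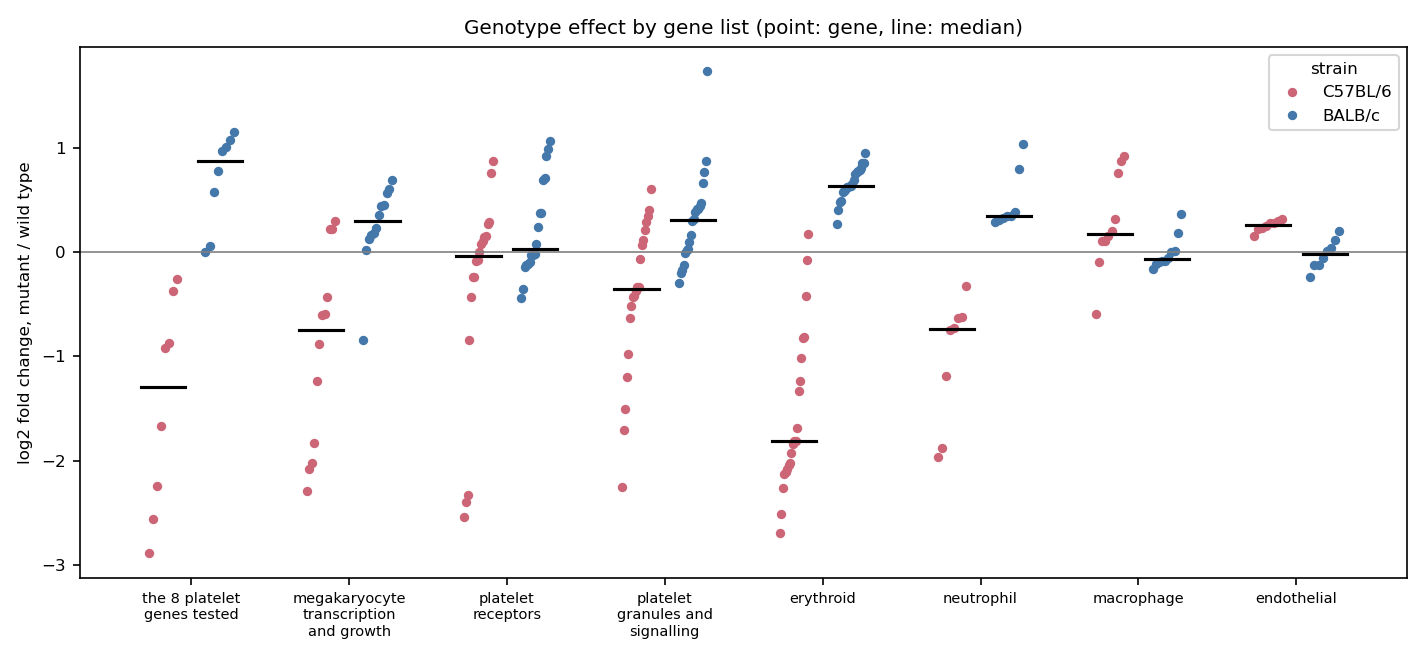
Log2 fold change of mutant over wild type for every tested gene (points) of 8 gene lists on C57BL/6 (red) and BALB/c (blue), with list medians as lines. The platelet genes have medians of -1.30 and 0.88 and the erythroid genes of -1.82 and 0.64, while the macrophage medians are 0.18 and -0.07.

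The erythroid list moved the same way as the platelet genes on C57BL/6, with 18 of 21 genes lower and 0 higher (median -1.82). Of all genes tested 12.6% were called lower. Among the erythroid genes that fell were Tmod1 (-2.70), Klf1 (-2.51), Hemgn (-2.26) and Rhag (-2.11). On BALB/c 4 of 21 were called higher (Rhd 0.86, Ermap 0.78, Spnb1 0.70 and Car2 0.50), against 15 of all 16190 genes tested. The erythroid count was 11 with DESeq2, which called 237 of all genes higher, and 8 in the BALB/c samples alone, where 51 of all genes were. It was 1 without C57BL/6 mutant replicate 5. The count was 0 under scaling by total counts, without C57BL/6 wild type replicate 3, without C57BL/6 mutant replicate 6, and without any 1 of the BALB/c samples except wild type replicate 14.

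Markers of other cell types were also called on C57BL/6, to be read against 12.6% of all genes called lower and 11.3% higher. Of 8 neutrophil markers 4 fell, with summed levels of 225 to 395 CPM in wild type and 116 to 253 CPM in mutants, and of 8 blood progenitor markers 5 fell, from 148 to 168 CPM down to 111 to 125 CPM. Mast cell markers, of which 2 of 6 tested fell, summed to 33.9 to 55.1 CPM in wild type and 27.2 to 34.5 CPM in mutants. The 2 were Hdc (-1.40) and Kit (-0.95), and Kit is also among the falling progenitor markers. The mast cell genes Cpa3 (-0.05), Cma1 (-0.11), Mcpt4 (-0.22) and Tpsb2 (-0.02) were not called. Of 10 macrophage markers 3 rose (Cd68 by 0.93, Cd163 by 0.87 and Csf1r by 0.76), 0 fell and 7 were not called (list median 0.18). The list summed to 324 to 408 CPM in wild type and 543 to 625 CPM in mutants. Most of that sum was Csf1r (means of 203 CPM in wild type and 344 CPM in mutants) and Cd68 (74.2 and 141 CPM), so it does not describe the markers that were not called. Of the osteoblast markers 6 of 8 rose, with sums of 67252 to 115535 CPM in wild type, where 1 sample stood apart at the lowest value from a median of 115006, and 128667 to 154038 CPM in mutants. Most of the osteoblast sum was Col1a1 (means of 89219 and 125588 CPM), which was not called (adjusted p = 0.0594). Of the endothelial markers 2 of 8 rose, with sums of 533 to 621 CPM in wild type and 637 to 747 CPM in mutants. Markers of airway and olfactory epithelium summed to 346 to 706 CPM (median 347) in C57BL/6 wild type, 5.34 to 156 CPM (median 6.95) in C57BL/6 mutants and 4.80 to 8.51 CPM on BALB/c. The highest sample of each C57BL/6 group thus stood apart. Of these markers 3 of 8 were lower in the C57BL/6 mutants, and 4 of 8 neuron markers were lower too. The summed level of the 9 platelet genes was 29.99 to 39.4, 15.6 to 19.7, 37.0 to 43.3 and 47.4 to 66.0 CPM in C57BL/6 wild type, C57BL/6 mutants, BALB/c wild type and BALB/c mutants. These counts varied: in the C57BL/6 samples alone 1 neutrophil, 1 progenitor, 1 neuron and 0 epithelium markers fell, and 2 macrophage, 2 osteoblast and 1 endothelial markers rose. With 1 sample left out, 1 to 7 neutrophil, 3 to 5 progenitor, 1 to 8 epithelium and 1 to 7 neuron markers fell and 5 to 7 osteoblast and 0 to 4 endothelial markers rose. Under scaling by total counts 6 neutrophil markers fell, 0 endothelial markers rose, and the macrophage list had 3 rises and 2 falls with its median turned to -0.0196. The part of these other cell types in the platelet gene values was not tested.

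The genes whose levels most resembled the mean of the 8 platelet genes (of 12779 candidates, by Pearson correlation of log2 CPM over 12 samples) were Depdc1b and E2f2 (both r = 0.982), the spectrin Spnb1 (0.981), the mitochondrial iron importer Slc25a37 (0.980) and Cd24a (0.979). Klf1 was at rank 15 with r = 0.973. These values describe the pattern across 4 groups and share the libraries with the genes described. After subtracting group means, the most similar genes were Zfp868 (0.963), Gpr56 (0.953), Top1mt (0.945), Ppp1r14c (0.941) and Cxcr4 (0.940). These are the highest of 12779 values from 12 samples, and how high such values run by chance was not tested. Before the subtraction Top1mt had r = 0.115. Klf1 stood at rank 1500 with r = 0.517 after it. The likeness to Klf1 was thus higher across the groups than among the samples within them.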

How the data were processed

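RNA-seq counts of 12 frontal bone samples (3 for each strain and genotype) were analysed. The authors deposited 1 table of raw counts per gene with RPKM values, and a second table of their own comparisons holding log2 fold changes with their p-values and q-values. Reads were aligned with TopHat2 2.0.6 to mm10, counted with HTSeq and compared with DESeq2, per the submitters' processing notes. The annotation and strand setting are not given in the sources used here, and coordinates are printed as deposited. All deposited counts were even, and 0 value columns belonged to no sample.

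Genes were filtered with filterByExpr (minimum count 10, minimum total 15) and scaled by TMM in edgeR 4.0.16 (R 4.3.3). A quasi-likelihood model with a mean per group was fitted to all 12 samples, with Benjamini-Hochberg adjustment and calls at an adjusted p under 0.05. Changes relative to Klf1 were fitted with limma 3.58.1 on log2 CPM (prior count 2). Both fits were tested on simulated data. The alternatives were DESeq2 1.42.0, RLE factors, total counts, no filter, single strains, leaving out each sample, another prior, an erythroid mean, and, added later, halved counts and per-gene variance.

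The members and lists were chosen with earlier results of these data known. All 9 members were named whatever their result, and from each list up to 5 called genes with the largest absolute log2 fold change; other names were chosen after their values were seen, and some genes are not reported here. Older symbols were matched through RefSeq synonyms, and 5 listed genes were not matched. Globin genes share sequence and were not named.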

Additional observations from a re-analysis of the deposited data

Results flagged for a closer look

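The effect of the mutation differed between the C57BL/6 and BALB/c backgrounds, by the interaction test of edgeR across all genes, for 7 of the 8 platelet genes tested and for Klf1. The same test called a higher effect on BALB/c in 5.46% of all genes. The difference (log2 effect on BALB/c minus log2 effect on C57BL/6) was 3.86 for Treml1, 3.72 for Ppbp, 3.33 for F2rl2, 2.68 for Gp9, 1.504 for Itga2b, 1.04 for Gp1ba and 0.93 for Pf4. It was 3.30 for Klf1.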

How the results depend on the processing

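No paired analysis was possible because replicate numbers were not shared between groups. The count of platelet genes called on C57BL/6 (6 of 8) ran from 5 to 7 over all alternatives, that called by strain in mutants stayed at 8, and that called for the interaction (7 of 8) ran from 5 to 8. On BALB/c the count was 0 in each alternative but DESeq2, which gave 2. Over all genes the calls on BALB/c moved more: 22 became 316 with DESeq2, 4 with total counts, 71 in the strain's own samples and 0 to 95 when 1 sample was left out. On C57BL/6, 3867 calls became 1458 in the strain's own samples and 1724 to 4833 with 1 sample left out. The 1626 interaction calls became 2690 with DESeq2 and 624 to 3129 with 1 sample left out. Total counts moved the median of all genes by -0.20 on C57BL/6, -0.12 between wild type strains and 0.11 between mutant strains, and changed the C57BL/6 split from 1835 higher and 2032 lower to 616 and 4064.

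With 1 sample left out, the strain difference in wild type ran from -0.21 to 0.16 for Itga2b, -0.27 to 0.019 for Treml1 and -0.70 to 0.032 for Ppbp, and the BALB/c genotype effect from -0.031 to 0.056 for Gp1bb and -0.074 to 0.23 for Pf4. Relative to Klf1, the C57BL/6 effect ran from -0.11 to 0.084 for Ppbp and -0.059 to 0.29 for Treml1, the BALB/c effect from -0.17 to 0.075 for Gp1ba, -0.17 to 0.52 for F2rl2 and -0.059 to 0.29 for Treml1, and the interaction from -0.18 to 0.19 for Treml1 and -0.66 to 0.027 for F2rl2. The count of genes differing from Klf1 on BALB/c ran from 0 to 2. With the erythroid mean in place of Klf1, the sign turned for Treml1 (-0.82) and F2rl2 (-0.43) on C57BL/6, Gp1ba (0.11) on BALB/c, and Gp9 (0.25) and F2rl2 (0.79) for the interaction, and a prior count of 0.5 turned Treml1 on C57BL/6 (-0.30). The cause was not tested. Low counts limit Gp6, Treml1, Gp9 and F2rl2 most.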
